A study of Mus musculus with 7 samples.

Results

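Bile acid synthesis, conjugation and export were examined through 32 genes in mouse liver, chosen by name as enzymes that turn cholesterol into bile acids, enzymes that join bile acids to taurine or glycine, transporters that move them across the hepatocyte membrane, and the receptors and nuclear factors that control them. A member was any probe whose only gene symbol in the platform annotation, current or older, was on that list, and each gene was summarised by its probe of highest mean intensity. All 32 genes had a probe, 47 probes in all, out of 19057 named genes and 45281 probes on the array. RNA came from whole livers of 7 male C57BL/6J mice, an inbred laboratory strain, at postnatal day 28, with 1 Illumina array per sample. The 3 ethanol samples are labelled as exposed through dams that freely drank 10% ethanol by volume between fertilization and gestational day 8.5, before the liver forms. The 4 controls are named only as control liver. The same exposure text stands on the control samples too, so the groups were taken from the sample titles, and what the control dams drank is not stated in the labels used here. The labels do not say whether the samples came from separate litters, so p-values measure only the spread between these 7 samples.

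Bile acids are made from cholesterol in hepatocytes. In the classic pathway Cyp7a1 adds the first hydroxyl group and Cyp8b1 sets the share of cholic acid, and in the acidic pathway Cyp27a1 and Cyp7b1 act on the side chain and on oxysterols. Side chains are shortened in peroxisomes, the product is activated by Slc27a5 and conjugated by Baat, and Abcb11 pumps the conjugates into the bile canaliculus. Bile acids returning from the gut are taken up by Slc10a1 and restrain their own synthesis, in the liver through the receptor FXR (Nr1h4) and its target Nr0b2 (SHP), and from the ileum through the hormone FGF15, which acts on Fgfr4 and its co-receptor Klb. Nr5a2 (LRH-1) is a nuclear receptor that activates genes of this pathway.

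No bile acid gene passed the test between ethanol and control livers. The values that stood furthest from the controls were lower levels of the regulators Nr5a2 and Klb in all 3 ethanol animals and, at some probes, higher levels of Scp2, the peroxisomal sterol carrier protein. Cyp7b1 was higher in 2 of the 3 ethanol animals. The classic pathway enzymes Cyp7a1 and Cyp8b1, the conjugating enzymes and the bile salt pump Abcb11 had values that overlapped between groups.

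Of the 32 genes, 28 were tested, because at least 3 arrays had a normalized level higher than that array's median. At an adjusted p under 0.05 (limma, Benjamini-Hochberg over 23829 probes) 0 of the 28 were called, where 0.0314% of all 12749 tested genes were (0.0157% higher and 0.0157% lower) and 0.021% of all tested probes, and the lowest adjusted p of a member's summary probe was 0.336. At an unadjusted p under 0.05 there were 6 members (21.4%), Cyp7b1 and Scp2 with higher and Nr5a2, Klb, Amacr and Abcc2 with lower means in ethanol livers, where 9.12% of all tested genes met that limit, 4.22% higher and 4.9% lower, and 8.8% of all tested probes did. In 5 members (17.9%) every ethanol value was above, or every one below, all control values, 2 higher (Scp2 and Abcc6) and 3 lower (Nr5a2, Klb and Amacr), where 8.96% of all tested genes were so, 4.16% higher and 4.8% lower, and 8.71% of all tested probes. The median log2 fold change, ethanol minus control, was -0.07 over the 28 members and -0.0013 over all tested genes, with 11 members higher and 17 lower. These counts include Akr1d1, Amacr and Fgfr4, which were above background on no array, and Amacr could enter the test only through its controls, so its place among them is no measurement of a difference. When the test was limited to probes that exceeded background on 3 or more arrays, it held 25 members, of which 4 were at an unadjusted p under 0.05 and 4 were without overlap. Shares over all genes were not counted in that setting, so the percentages above are no background for these 2 counts. The shares given for the members describe a list that was chosen by name and was not tested as a set. A setting with controls 3 and 4 as the only controls was added because controls 1 and 2 stood apart in several genes below. Of its 27 tested members, 2 were at an unadjusted p under 0.05 and 6 were without overlap. Groups lie apart more easily when there are fewer controls. Shares over all genes were not counted in that setting either, so the 6 cannot be set against the 5 of the main fit.

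**Figure D1:**
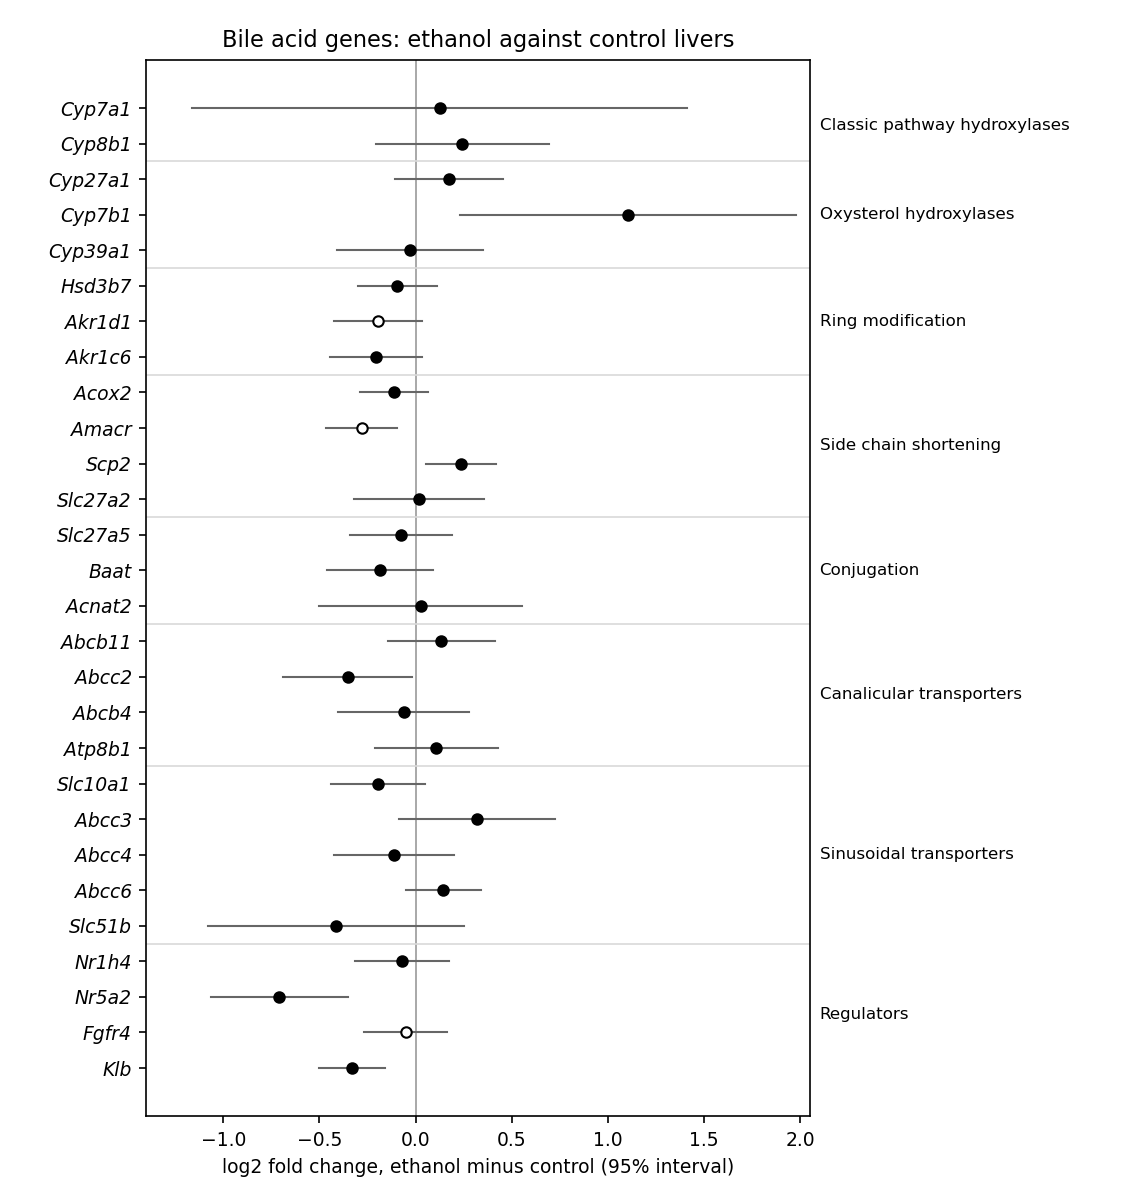
The plot shows the log2 fold change, ethanol minus control, of the 28 tested bile acid genes on the horizontal axis, as a point with its 95% interval from limma, ordered by role. Filled points are genes above background and open points the 3 genes above background on no array (Akr1d1, Amacr and Fgfr4). Nr5a2 and Klb lie furthest below 0 relative to their intervals, and the interval of Cyp7a1 is the widest.

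How well the array reads each gene limits what follows. On all 7 arrays, 25 of the 32 genes were above background, taken as 3 times the noise of the array, and 7 were above background on no array. The 4 genes that were not tested, Abcb1a and Abcg2 (canalicular export pumps of drugs and organic anions), Slc51a (a subunit of the basolateral bile acid exporter) and Nr0b2, were all among these 7, with intensities between -11.1 and 12.3 against array limits of 21.3 to 26.9. The other 3, Akr1d1, Amacr and Fgfr4, were tested but also had no array above its limit, so no level or fold is read from them. A dim probe does not by itself mean an absent transcript: the brightest probe of Fgb, the fibrinogen beta chain that hepatocytes secrete in bulk, had a mean intensity of 38.4 in control livers. Levels are therefore compared only within a probe.

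Among the regulators, Nr5a2 and Klb had lower values in every ethanol animal than in any control. Nr5a2 had intensities of 378, 400.0, 237 and 247 in control replicates 1 to 4 and of 144, 193 and 149 in ethanol replicates 1 to 3. The controls formed a higher pair (1 and 2) and a lower pair (3 and 4), and all 3 ethanol values lay below both. The group means were 315 ± 85.5 (SD, n = 4) and 162 ± 26.8 (SD, n = 3), a log2 difference of -0.71 ± 0.16 (SE) at adjusted p 0.336 in limma. The other probe of Nr5a2 that was above background in all controls, ILMN_2813203, read 55.0, 77.8, 42.2 and 47.8 in controls and 5.37, 36.0 and 26.3 in ethanol animals, again without overlap, with a log2 difference of -0.44 ± 0.13 at adjusted p 0.428. That probe was dim, and its value in ethanol replicate 1 was below the limit of the array. The third Nr5a2 probe was above background on no array. Runs without 1 animal gave log2 fold changes of the summary probe from -0.81 to -0.61, and with controls 3 and 4 alone it was -0.42.

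Klb, the co-receptor that lets FGF15 act on hepatocytes, had the smallest spread between animals of any tested member. Its controls read 354, 377, 379.6 and 391 and its ethanol animals 269, 296 and 284, so the highest ethanol value lay well below the lowest control. The means were 375 ± 15.4 (SD, n = 4) and 283 ± 13.5 (SD, n = 3), with a log2 difference of -0.33 ± 0.08 at adjusted p 0.348. That value moved little, from -0.35 to -0.30 over the runs without 1 animal and to -0.35 with controls 3 and 4 alone. Fgfr4, the kinase receptor that Klb partners, read 1.13, 10.7, 5.27 and 17.4 in controls and 4.09, 0.31 and 12.2 in ethanol animals, all below the limits of their arrays. Nr1h4, the bile acid receptor FXR itself, had 3294, 4293, 3844 and 4483 in controls and 3983, 4131 and 3387 in ethanol animals. These groups overlapped fully, with a log2 fold change of -0.07 ± 0.11 and a 95% interval from -0.32 to 0.17. Nr0b2, the repressor that FXR induces, read -5.23, -3.05, -11.1 and -6.18 in controls and -6.81, -7.44 and 6.92 in ethanol animals, so its level was not measured here.

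The promoter windows of 5 of these genes are shown because Nr5a2, Klb and Scp2 were the members above background with values apart between groups at an unadjusted p under 0.05, and because Cyp8b1 and Nr0b2 are known targets of Nr5a2. Each window is the 250 bases before a RefSeq transcription start in GRCm38.p6, read 5′ to 3′ along the gene, and capitals mark matches, on either strand, to the motifs listed after the sequences.
Nr5a2 (chr1:136960449-136960698, minus strand): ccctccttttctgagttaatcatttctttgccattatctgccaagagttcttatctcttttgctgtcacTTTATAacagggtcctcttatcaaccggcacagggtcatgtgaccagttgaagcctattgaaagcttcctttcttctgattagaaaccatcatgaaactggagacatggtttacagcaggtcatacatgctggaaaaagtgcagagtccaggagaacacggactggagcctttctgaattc
Klb (chr5:65348161-65348410, plus strand): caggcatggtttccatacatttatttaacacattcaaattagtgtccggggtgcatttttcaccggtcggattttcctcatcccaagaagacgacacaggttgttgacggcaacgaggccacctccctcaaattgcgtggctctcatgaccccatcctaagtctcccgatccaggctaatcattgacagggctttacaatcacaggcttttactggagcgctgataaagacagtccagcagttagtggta
Scp2 (chr4:108118548-108118797, minus strand): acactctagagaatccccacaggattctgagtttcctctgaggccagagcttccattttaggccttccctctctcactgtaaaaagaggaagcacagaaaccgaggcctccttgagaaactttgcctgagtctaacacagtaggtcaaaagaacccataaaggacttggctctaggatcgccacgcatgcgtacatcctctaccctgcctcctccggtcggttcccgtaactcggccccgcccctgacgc
Cyp8b1 (chr9:121916306-121916555, minus strand): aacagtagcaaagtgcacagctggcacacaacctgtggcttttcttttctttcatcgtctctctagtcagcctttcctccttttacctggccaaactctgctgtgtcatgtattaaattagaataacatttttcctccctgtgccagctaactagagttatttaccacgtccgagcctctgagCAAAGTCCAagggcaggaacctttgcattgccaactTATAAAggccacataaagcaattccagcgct
Nr0b2 (chr4:133553126-133553375, plus strand): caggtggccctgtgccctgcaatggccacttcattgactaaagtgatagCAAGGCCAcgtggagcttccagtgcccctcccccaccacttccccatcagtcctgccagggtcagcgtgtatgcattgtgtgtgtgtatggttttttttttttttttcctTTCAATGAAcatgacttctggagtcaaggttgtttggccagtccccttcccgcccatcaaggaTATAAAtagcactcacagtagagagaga

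Motifs were searched as exact letters on both strands in the 250 bases before each of 32851 RefSeq starts, and 23 of the 32 genes had at least 1 such window (30 windows). The Nr5a2 motif was searched as CAAGGTCA, present in 1.33% of all windows, and as CAAGGCCA, in 1.99%. Of the 30 windows of members, 1 held the first form and 2 the second. Of the 5 windows shown, that of Nr0b2 held CAAGGCCA, 201 to 194 bases before the start. The Cyp8b1 window held neither form, and sites that differ from these letters were not searched. Cyp8b1 held CAAAGTCCA, a motif of the hepatocyte factor HNF4 found in 0.384% of all windows, 67 to 59 bases before its start, and a TATAAA box (12.4% of all windows) 31 to 26 bases before it. The Nr0b2 window also held a TATAAA box, 28 to 23 bases before the start, and TTCNNNGAA, the spacing bound by STAT factors (7.02% of all windows), 91 to 83 bases before it. The Nr5a2 window shown held only TATAAA, on the opposite strand, 181 to 176 bases before the start, and the window of its other RefSeq start, not shown, held none of these motifs. The Klb and Scp2 windows held none of these letters, nor the FXR inverted repeat, AGGTCA and TGACCT with 1 base between them (0.00609% of all windows). Such matches describe the sequence and are not evidence of binding.

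**Figure D2:**
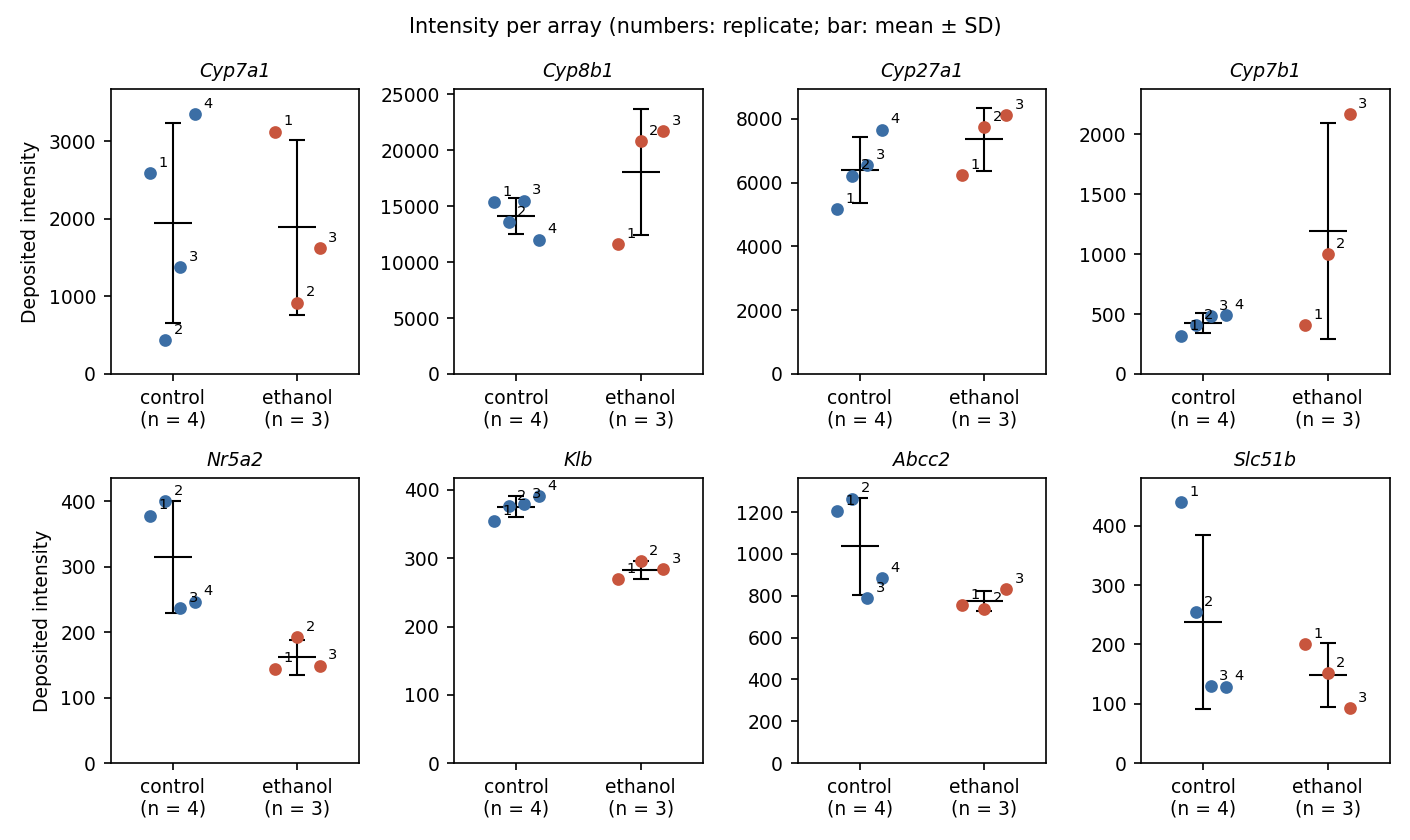
Deposited intensity on the vertical axis, from 0, for 8 bile acid genes in the 4 control and 3 ethanol livers. Points are arrays, numbered by replicate, and bars are the mean ± SD. Klb and Nr5a2 have no overlap between groups, Cyp7a1 spans the same range in both, and controls 1 and 2 sit above controls 3 and 4 for Nr5a2, Abcc2 and Slc51b.

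The classic pathway enzymes differed more between animals than between groups. Cyp7a1, the rate-limiting enzyme of bile acid synthesis, had intensities of 2590, 438, 1379 and 3353 in controls and 3124, 918 and 1624 in ethanol animals. Low and high animals occurred in both groups, and the ethanol values lay inside the control range. The means were 1940 ± 1290 (SD, n = 4) and 1889 ± 1126 (SD, n = 3), and the log2 fold change was 0.13 ± 0.58 at adjusted p 0.974 in limma. Its 95% interval, from -1.16 to 1.41, was the widest of the members. Cyp7a1 transcripts are known to follow the time of day and feeding, and the labels used here do not give the hour of collection.

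Cyp8b1, which directs synthesis towards cholic acid, read 15374, 13593, 15505 and 12019 in controls and 11588, 20823 and 21740 in ethanol animals. Ethanol replicates 2 and 3 lay above all controls and ethanol replicate 1 lay below all of them. The log2 fold change was 0.24 ± 0.20 at adjusted p 0.782, and it was 0.53 without ethanol replicate 1 and 0.05 without ethanol replicate 3.

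In the acidic pathway, Cyp7b1 had the largest fold change of the members. This oxysterol hydroxylase is known to be more abundant in male than in female mouse liver. Its intensities were 313, 404, 485 and 488 in controls and 406, 999 and 2171 in ethanol animals. Ethanol replicate 1 lay inside the control range, and the other two lay above it. The means were 423 ± 82.7 (SD, n = 4) and 1192 ± 899 (SD, n = 3), with a log2 difference of 1.10 ± 0.39 at adjusted p 0.482. It was 0.53 without ethanol replicate 3, and 1.67 with an adjusted p of 0.0609 without ethanol replicate 1.

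Cyp27a1, the mitochondrial enzyme that opens the acidic pathway, had 5168, 6225, 6561 and 7665 in controls and 6249, 7734 and 8118 in ethanol animals at its summary probe. Those ranges overlapped, with a log2 difference of 0.17 ± 0.13 at adjusted p 0.750. The other 2 probes of Cyp27a1 gave 0.38 ± 0.14 and 0.37 ± 0.16, with adjusted p-values of 0.497 and 0.548 and overlapping groups. Their unadjusted limma p-values were 0.0205 and 0.0383, against 0.204 at the summary probe, which alone enters the counts of members. Cyp39a1, which hydroxylates an oxysterol that comes mainly from the brain, ranged from 120.1 to 231 in controls and from 151 to 249.8 in ethanol animals, with a log2 fold change of -0.03 ± 0.17.

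Of the 3 enzymes that modify the sterol rings, Hsd3b7 and Akr1c6 could be read, and neither passed the test. Hsd3b7, a dehydrogenase of the sterol ring needed by every route, ranged from 24268 to 26482 in controls and from 21244 to 27849 in ethanol animals (log2 fold change -0.10 ± 0.09). Akr1c6, an aldo-keto reductase acting on steroids, ranged from 48.9 to 79.9 and from 30.5 to 56.3 (-0.21 ± 0.11). Both ranges overlapped. Akr1d1, the reductase that gives bile acids their bent ring, was above background on no array in either group.

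Among the genes of side chain shortening, Scp2 stood apart, and its probes did not give the same size of difference. The summary probe of Scp2, a gene whose transcripts encode a peroxisomal thiolase fused to a sterol carrier and the carrier alone, read 19974, 23089, 22181 and 22577 in controls and 24460, 28184 and 28091 in ethanol animals. The groups did not overlap, and the means of 21955 ± 1372 (SD, n = 4) and 26912 ± 2124 (SD, n = 3) gave a log2 difference of 0.23 ± 0.08 at adjusted p 0.481. The Scp2 probe ILMN_1221684 read 3627, 5160, 6214 and 5224 in controls and 9154, 9661 and 14332 in ethanol animals, so every ethanol value was above the highest control. Its log2 fold change was 1.10 ± 0.20 at adjusted p 0.185, the lowest of any member probe, and ran from 0.87 to 1.22 over the runs without 1 animal. The Scp2 probe ILMN_2705881 gave 0.14 ± 0.09 with overlapping groups. The dimmest Scp2 probe, ILMN_2651412, was above background on 1 ethanol array alone. The annotation used here does not say which transcript each Scp2 probe reads.

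**Figure D3:**
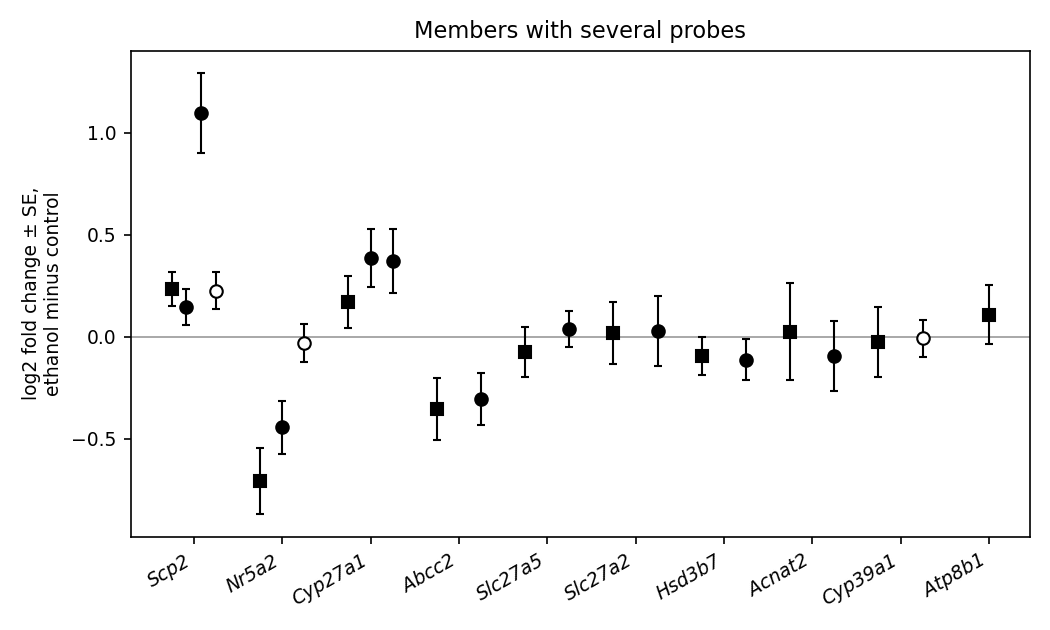
The plot gives the log2 fold change, ethanol minus control, with its SE from limma, for every tested probe of the 10 members with several probes. Squares are the summary probes, circles the other probes, and open symbols probes above background on fewer than 3 arrays. Probe ILMN_1221684 of Scp2 lies at 1.10, away from the other Scp2 probes, while the 2 Nr5a2 probes with filled symbols both lie below 0.

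Of the other side chain genes, Acox2 and Slc27a2 were close between groups, and Amacr could not be read. Acox2, the peroxisomal oxidase of branched chains, ranged from 3984 to 4373 in controls and from 3695 to 3997 in ethanol animals, with a log2 fold change of -0.11 ± 0.08. Slc27a2, an acyl-CoA synthetase of very long chains, ranged from 7558 to 12113 and from 9708 to 12549, with a log2 fold change of 0.02 ± 0.15. Amacr, the racemase that turns the side chain into the form the oxidase accepts, read 9.20, 19.3, 18.4 and 17.1 in controls and -1.63, 1.66 and 1.32 in ethanol animals. These values did not overlap (adjusted p of 0.428), but every one of them was below its array's limit.

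Conjugation genes had overlapping values. Slc27a5, which activates bile acids to their CoA esters, read 8988, 12782, 10874 and 13610 in controls and 10139, 11402 and 12080 in ethanol animals. The ethanol values lay inside the control range, with a log2 fold change of -0.07 ± 0.12 and a 95% interval from -0.34 to 0.19. Baat, which joins the activated bile acid to taurine or glycine, read 2236, 2229, 2440 and 2442 in controls and 1667, 2064 and 2462 in ethanol animals. Ethanol replicates 1 and 2 lay below all controls and ethanol replicate 3 above them, and the log2 fold change was -0.19 ± 0.13 at adjusted p 0.717. It was -0.34 without ethanol replicate 3 and -0.05 without ethanol replicate 1. Acnat2, a peroxisomal acyltransferase related to Baat, had the same mean of 397 in both groups and ranged from 202 to 502 in controls.

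At the canalicular membrane, the conjugate pump Abcc2 had the largest difference. Abcc2, which exports bilirubin glucuronides and divalent bile acids, read 1204, 1265, 790.0 and 885 in controls and 754, 739 and 831 in ethanol animals. Controls 1 and 2 were high, while controls 3 and 4 were close to the ethanol animals, and the groups overlapped. The means were 1036 ± 234 (SD, n = 4) and 774 ± 49.2 (SD, n = 3), with a log2 difference of -0.35 ± 0.15 at adjusted p 0.549. With controls 3 and 4 alone it was -0.09. The other Abcc2 probe gave -0.31 ± 0.13.

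Krt23, a keratin on the list of bile duct markers, was split between the controls in the same way, at 784, 754, 335 and 397, and read 349.8, 312 and 334 in ethanol animals. The summed intensity of the 8 bile duct markers with a probe ran from 595 to 1492 in controls and from 643 to 873 in ethanol animals. Sox9, a transcription factor of bile duct cells, read 656, 343, 230.3 and 173 in controls and 248, 425 and 497 in ethanol animals. Its mean was higher in ethanol livers after normalization (0.22 ± 0.33) where that of Krt23 was lower (-0.58 ± 0.24). Of the 4 markers tested, 1 had a higher and 3 a lower mean, with Tspan8 at -0.34 ± 0.21 and Krt7 at -0.09 ± 0.10. Tspan8 was above background on 3 control arrays, Krt7 on 2, and neither on any ethanol array. Tspan8 read 33.2, 109, 10.5 and 42.0 in controls, not split as Krt23 was. Of the 8 markers 4 were above background on at least 1 array, and the defining markers Krt19, Epcam and Cftr were above background on none. Bile duct cells and hepatocytes were not separated, and the part of such cells in these values was not tested. In whole liver, fewer cells of a type and less RNA per cell cannot be told apart.

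Abcb11, the bile salt export pump, read 1351, 1550, 1610 and 1865 in controls and 1651, 1574 and 2020 in ethanol animals. The groups overlapped, with a log2 fold change of 0.13 ± 0.13 and a 95% interval from -0.15 to 0.41. Abcb4, which moves phosphatidylcholine into bile, ranged from 3345 to 5691 in controls and from 3810 to 5065 in ethanol animals (log2 fold change -0.06 ± 0.15). Atp8b1, an aminophospholipid flippase that protects the canalicular membrane, ranged from 536 to 659 and from 493 to 809 (0.11 ± 0.15).

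On the sinusoidal side, Slc10a1, the sodium-dependent uptake transporter of conjugated bile acids, read 120.3, 139, 151 and 161 in controls and 87.3, 137 and 122 in ethanol animals. Only ethanol replicate 1 lay below all controls, and the log2 fold change was -0.20 ± 0.11 at adjusted p 0.654. Slc51b, the other subunit of the basolateral exporter and a strong FXR target, read 439.5, 255, 129 and 129 in controls and 200.1, 152 and 92.2 in ethanol animals. Controls 1 and 2 were again the highest, and the log2 fold change of -0.41 ± 0.30 (adjusted p of 0.744) became -0.13 without control replicate 1 and 0.10 with controls 3 and 4 alone.

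The other sinusoidal pumps also did not pass the test. Abcc3, a basolateral pump of glucuronides and bile acids, ranged from 242 to 426 in controls and from 304 to 539 in ethanol animals, with a log2 difference of 0.32 ± 0.18 at adjusted p 0.664. It was 0.16 without ethanol replicate 3 and 0.53 without ethanol replicate 2. Abcc4, another basolateral efflux pump, ranged from 33.7 to 78.3 and from 30.6 to 57.8 (-0.11 ± 0.14). Abcc6, a hepatocyte transporter linked to mineralisation of soft tissue, read 546, 556, 562 and 568 in controls and 580.5, 599 and 681 in ethanol animals. All 3 of its ethanol values were above the controls, by a small margin in ethanol replicates 1 and 2, with a log2 difference of 0.14 ± 0.09 at adjusted p 0.675. It was 0.07 without ethanol replicate 3.

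**Figure D4:**
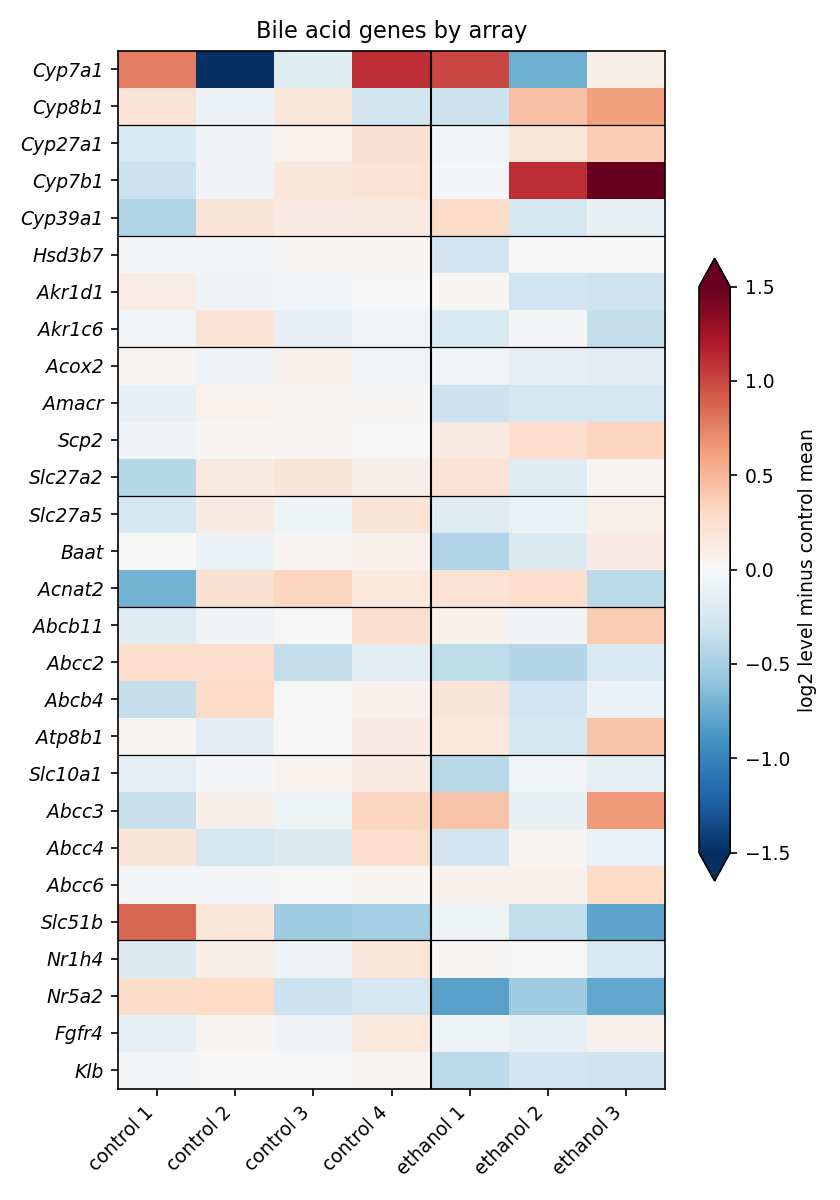
Each row is a tested bile acid gene and each column an array, with controls left of the vertical line. Colour gives the normalized log2 level minus the gene's control mean, with the scale ending at 1.5 in either direction. Cyp7a1 varies in both groups, Cyp7b1 is high in ethanol replicates 2 and 3, and Nr5a2 and Klb are below the control mean in every ethanol animal.

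The members varied more between animals of a group than most genes. Their median residual SD, the spread of log2 levels about the group means, was 0.20 against 0.13 over all tested genes, and 17 of the 28 were above the upper quartile of all tested genes (0.18). Cyp7a1 was at 1.11, a higher residual SD than 99.9% of tested genes or equal to it, followed by Cyp7b1 at 0.74, Slc51b at 0.56, Acnat2 at 0.44 and Cyp8b1 at 0.36. At the other end, Klb had 0.04, Acox2 0.06 and Scp2 0.07. These spreads are descriptions, and the offset added before the log compresses the spread of dim probes. Members were not matched with other genes for brightness. Of the 28 tested members, 25 were above background on 3 or more arrays, against 14703 of the 23829 tested probes. The members are counted by their brightest probe and the second count takes in all probes of a gene, so these shares are not alike.

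Other genes of the pathway were read from 5 lists of 45 genes in all, of which 39 had a probe and 38 were tested. None passed the test (lowest adjusted p of 0.167). At an unadjusted p under 0.05 there were 2 with higher and 5 with lower means (18.4%, beside the 9.12% over all tested genes), and the median log2 fold change was -0.0086.

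Of the 5 genes for uptake and other handling, Slco1a4, an organic anion transporter that takes up bile acids, read 442, 371, 386 and 483 in controls and 259.6, 256 and 187 in ethanol animals, without overlap (log2 fold change -0.69 ± 0.12, adjusted p of 0.167). Slco2b1, of the same transporter family, read 3395, 3345, 3877 and 3286 in controls and 4467, 4846 and 5680 in ethanol animals, all above the controls (0.49 ± 0.11, adjusted p of 0.306). Ephx1, the microsomal epoxide hydrolase, had 0.41 ± 0.14 (adjusted p of 0.472) and also did not overlap.

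Among 8 tested genes of the canalicular membrane and its traffic, both subunits of the sterol exporter had lower means. Abcg5 read 6662, 5726, 5228 and 6527 in controls and 5048, 3341 and 3293 in ethanol animals, each below the lowest control. Its log2 fold change was -0.67 ± 0.16 at adjusted p 0.362, and it passed without ethanol replicate 1 (-0.88, adjusted p of 0.0470). Abcg8 read 2868, 3099, 2333 and 2711 in controls and 2711, 1590 and 1632 in ethanol animals, where ethanol replicate 1 lay within the control range (-0.50 ± 0.17, adjusted p of 0.481).

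Of 12 other regulators tested, Ppara, the fatty acid receptor, had -0.34 ± 0.12 without overlap, and Ppargc1a, a coactivator of fasting metabolism, -0.55 ± 0.19 with overlap (adjusted p-values of 0.472 and 0.480). The FXR partner Rxra had 0.18 ± 0.11 and the hepatocyte factor Hnf4a 0.17 ± 0.16. No gene reached an unadjusted p under 0.05 among the 5 other hydroxylases, such as Cyp2c70, which makes the muricholic acids of mice (-0.08 ± 0.14), or among the 8 peroxisomal genes tested, such as Hsd17b4, the bifunctional enzyme that follows the oxidase (0.17 ± 0.09).

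**Figure D5:**
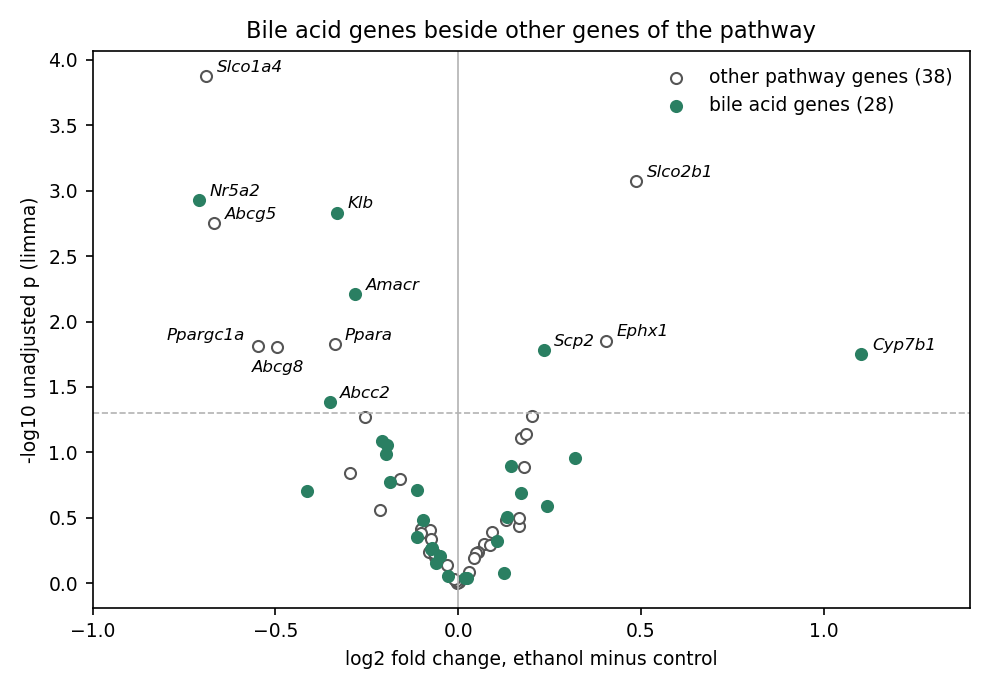
The horizontal axis is the log2 fold change, ethanol minus control, and the vertical axis the negative log10 of the unadjusted limma p, for 28 bile acid genes (filled) and 38 other genes of the pathway (open). The dashed line is at p 0.05 and genes above it are named. None of these genes passed after adjustment over all probes.

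Over the whole series, array medians ranged from 5.13 to 5.94, and each array had 13951 to 15068 probes above background. Correlations across tested probes ran from 0.987 to 0.995 within groups and from 0.981 to 0.992 between them. Summed intensities of 7 hepatocyte markers ran from 187253 to 226429 in controls and from 227557 to 239656 in ethanol animals, so the groups did not overlap, although none of these markers reached an unadjusted p under 0.05 after normalization. The 7 Kupffer cell markers with a probe, of which all 6 tested had higher means in ethanol livers, summed to between 4164 and 4718 in controls and between 3710 and 6221 in ethanol animals. The 6 stellate cell markers summed to 1955 to 2465 and 1242 to 1979, and the 6 endothelial markers to 7742 to 11811 and 8095 to 10383. All 6 stellate markers had lower means in ethanol livers, but the log2 fold changes of Col1a1 (-0.01), Pdgfrb (-0.01) and Des (-0.04) were close to 0. The 2 erythroid markers with a probe summed to 37055 to 49646 and 47215 to 54989, the 4 lymphocyte markers to 103 to 128 and 97.7 to 206, and the 5 pancreas and intestine markers to 518 to 746 and 679 to 1229, where Cela1 alone was above background. Such sums follow their brightest probes. At an unadjusted limma p under 0.05 were the stellate markers Lrat and Col3a1, Lyve1 (endothelial) and Krt23 (bile duct), all with lower means. Alas2 (erythroid) and Cela1 had higher means at that limit, which 9.12% of all tested genes met. No Kupffer cell or lymphocyte marker met it, and no marker passed after adjustment. The part of such cells in the values above was not tested.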

How the data were processed

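The authors deposited linear intensities of 45281 probes on each of 7 arrays. The submitters' processing notes name GenomeStudio, whose version, background correction and normalization are not given in the sources used here. Values below 0 show that a background had been subtracted. A second table was not used, because its 14 columns of values match no sample's labels.

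Intensities were corrected with normexp (offset 50), taken to log2 and quantile normalized in limma 3.58.1 under R 4.3.3. A log2 fold change on this scale understates the change of dim probes. The 23829 probes that exceeded the median of 3 or more arrays entered 1 two-sided moderated test (lmFit, eBayes), adjusted after Benjamini-Hochberg across all of these, with a threshold of 0.05. The fit was tested on simulated data with independent noise and with differences larger than most of those given here. That test does not show how well differences of the size seen in most members would be found. Background was set for each array at 3 times its noise, the root mean square over negative intensities. Precision is limited by having 7 arrays.

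Symbols were updated through the Entrez ID in a RefSeq gene table (GRCm38.p6), which matched 34807 of 34885 probes with 1 symbol. A further 18 probes had several symbols and 10378 none, and these were not named. Promoter sequences are from RefSeq. The 32 genes, the other pathway genes and the marker lists were chosen with earlier results of these data known. All array values are printed for members with an unadjusted p under 0.05 or without overlap and for 14 genes central to the pathway. Members are otherwise given by range. Up to 4 genes per pathway list with an unadjusted p under 0.05 are named, and other genes of those lists named here were picked as examples after their values were seen. Alternatives covered the offset, background correction, normalization, filters, variance model, replicate block, choice of probe and leaving out each array.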

Additional observations from a re-analysis of the deposited data

Results flagged for a closer look

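In 4 of the 28 tested members, 1 of the 4 control arrays lay far from the other 3 on the normalized log2 scale, with a gap to its nearest neighbour that took up most of the group's range. Chance alone marks about 1 in 20 such groups of values. Control replicate 1 was the low array in 3 of them. In deposited intensities, Cyp39a1 read 120.1 there, with the next control at 219. Slc27a2 read 7558 there, with the next control at 11501, and Acnat2 read 202 there, with the next control at 428. The second probes of Slc27a2 and Acnat2 were also lowest in control replicate 1, at 4150 and 15.3. In Abcc6, control replicate 4 was set apart as the highest on the normalized scale, at 9.32 against 9.29 for the next control. Its deposited intensity was 568, with the next control at 562, and on that scale it was not set apart. Ethanol groups of 3 were not examined in this way.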

How the results depend on the processing

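No bile acid gene's summary probe passed the threshold under any of the 15 planned settings (lowest adjusted p in limma 0.0609, Cyp7b1 without ethanol replicate 1). Of 417 recomputed member values, 397 kept the sign of the main value. Settings that changed only the filter or the variance model could not move a fold change. Nor could the mean over probes for a gene with 1 probe, so part of this agreement was fixed beforehand. The count over all probes, 5 in the main analysis, was 3 with an offset of 16, 8 without a filter, 0 with probes above background only, 1 with trended robust variances, 24 with the replicate block and 0 with controls 3 and 4 alone, and ran from 0 (without control replicates 1, 3 or 4) to 27 (without ethanol replicate 1). The count of members at an unadjusted p under 0.05, 6 in the main analysis, was 10 with the replicate block and 2 with controls 3 and 4 alone. The count without overlap, 5 in the main analysis, was 4 with probes above background only. It ran from 5 to 9 over runs without 1 animal (9 without ethanol replicate 1, 8 without ethanol replicate 2). Groups lie apart more easily with fewer arrays, and shares over all genes were not counted in these settings. Signs turned in genes close to 0 or led by single animals: Cyp7a1 ran from -0.43 (without control replicate 2) to 0.55 over runs without 1 animal, Cyp39a1 from -0.18 to 0.088, Slc27a2 from -0.13 to 0.12, Acnat2 from -0.21 to 0.24, Abcb4 from -0.19 to 0.052, Atp8b1 from -0.052 to 0.29, Nr1h4 from -0.14 to 0.0072 and Fgfr4 from -0.11 to 0.00042. With the replicate block Cyp39a1 had 0.018 and Fgfr4 0.00045, and with the mean over probes Acnat2 had -0.035. With controls 3 and 4 alone, a setting chosen after seeing the data, Cyp7a1 had -0.33, Slc27a2 -0.13, Acnat2 -0.21 and Slc51b 0.10. The cause of these shifts was not tested. Replicate numbers are shared between groups, and the deviations of same-numbered animals correlated at -0.19, 0.09 and 0.20. These values cannot settle whether the numbers pair animals, and the main fit did not pair them. Control replicate 4 has no ethanol animal of the same number. The replicate block therefore took every fold change, and its counts above, from replicates 1 to 3 of each group alone. Cyp7a1 had 0.49 ± 0.15 (SE) under the replicate block, at an adjusted p of 0.463 in limma, and also 0.49 without control replicate 4. With the replicate block the Scp2 probe ILMN_1221684 passed (1.12, adjusted p 0.0311). Low signal limits the 7 members above background on no array.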

Other observations

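Several genes outside the bile acid list showed the split between control replicates 1 and 2 and control replicates 3 and 4 that Nr5a2, Abcc2 and Slc51b showed, and they were picked after their values were seen. Lrat, the enzyme with which stellate cells store vitamin A, read 366, 379, 45.2 and 60.3 in controls and between 7.18 and 58.5 in ethanol animals. Ppargc1a read 197, 172, 108 and 107 in controls and 121, 44.6 and 67.1 in ethanol animals. At the probe used for Alb, the plasma protein albumin, controls read 560.5, 567, 389.5 and 384 and ethanol animals 467, 532 and 379.5. In Lrat every ethanol animal was below control replicate 4, while in Alb the ethanol animals fell across most of the control range. What set the 2 pairs of controls apart was not tested.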
